A study of Drosophila melanogaster with 18 samples.

Results

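Mst84Da, Mst84Db, Mst84Dc, Mst84Dd, Mst87F, Mst98Ca, Mst98Cb and dj (don juan) are male germline genes of Drosophila melanogaster whose products are built into the sperm tail. They were picked by name from the 17972 genes of the Illumina table, and all 8 were also among the 13969 genes of the Nanopore table. RNA of whole adult flies had been sequenced on both platforms in 18 libraries, of which 3 belong to each genotype on each platform. The dec2P384R flies were GR23E10-gal4;UAS-dec2P384R, the dec2WT flies were GR23E10-gal4;UAS-dec2WT, and the driver control was GR23E10-gal4;+, so that every group carried the gal4 driver and the control had no UAS transgene. Gal4, a transcription factor from yeast, activates genes placed behind UAS sites. Dec2 belongs to the basic helix-loop-helix transcription factors and acts mainly as a repressor. The driver is best known for its expression in neurons that project to the dorsal fan-shaped body and promote sleep. The cells in which it was active in these flies were not measured, and the extracts hold RNA of the whole animal. Per the labels, flies were held at 25 °C with 12 h of light a day and sampled at zeitgeber time 3, which is 3 h after lights on, in pools of about 70 animals. Neither sex nor age is stated.

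Drosophila sperm tails are very long, and most mRNAs for their proteins are made in spermatocytes, stored, and translated once the spermatid elongates. The Mst84D, Mst87F and Mst98C genes encode proteins with repeats of cysteine, glycine and proline that are known from the satellite structures around the axoneme, and Mst87F is a model gene for this delayed translation. Don juan is a basic protein of the mitochondrial derivatives that run along the tail. Their transcripts are therefore measures of late male germline RNA in a whole fly. In whole flies, fewer germline cells and less RNA per cell cannot be told apart.

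All 8 genes lie on chromosome arm 3R, and the deposited coordinates of each match Ensembl release BDGP6.54. The 4 Mst84D genes form a cluster from 7363307 to 7366262. Mst84Dd (FBgn0004175, 7363307 to 7363773), Mst84Dc (FBgn0004174, 7364254 to 7364673) and Mst84Db (FBgn0004173, 7365160 to 7365627) are on the minus strand, with 480 and 486 bases between neighbours. Mst84Da (FBgn0004172, 7365850 to 7366262) is on the plus strand, 222 bases beyond Mst84Db. Each has 2 exons, and the encoded proteins have 72, 55, 74 and 63 residues in the order Mst84Dd, Mst84Dc, Mst84Db and Mst84Da. Mst87F (FBgn0002862, 13827151 to 13828008, minus strand) also has 2 exons and encodes 56 residues. Mst98Ca (FBgn0002865, 28291338 to 28292656) and Mst98Cb (FBgn0004171, 28292798 to 28293863) follow each other on the plus strand with 141 bases between them. Both are single-exon genes, and their proteins of 334 and 265 residues are several times longer than those of the other Mst genes. dj (FBgn0019828, 7059315 to 7060524, plus strand) has isoforms of 187 to 248 residues, and djl (don juan like) starts 242 bases downstream. The Mst84D genes are paralogs, as are Mst98Ca with Mst98Cb and dj with djl. How reads that fit more than one copy were counted was not given in the sources used here, so the split between paralogs is uncertain.

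The libraries carried the markers of adult males. The seminal fluid genes Acp26Aa and SP (Sex Peptide) lay between 185 and 327 FPKM and between 89.5 and 233 FPKM over the 9 Illumina libraries. FPKM values are fragment counts divided by the length of the gene and by a scaling constant of the library, which here follows a median-of-ratios factor and not the library total. Of 22 accessory gland genes, 17 averaged at least 100 FPKM. Of 20 ovary, eggshell and yolk genes, 17 averaged under 1 FPKM, 2 were at 0 in every library, and the highest mean was 6.76 FPKM. The yolk genes Yp1 and Yp2 stayed between 0.20 and 2.29 FPKM. The summed level of the 20 was 12.3 to 14.4 FPKM in dec2P384R, 13.2 to 19.2 FPKM in dec2WT and 15.8 to 21.4 FPKM in the driver control. Illumina libraries held 18057117 to 28293197 reads on genes and Nanopore libraries 1922380 to 4659601 estimated counts. In each Illumina library, every sperm tail gene other than Mst84Da had between 2249 and 10230 reads, and on Nanopore each of the 8 had between 606 and 4022 estimated counts per library. One Nanopore library stood apart in the clock gene tim, with 247 CPM (counts scaled to 1000000 per library) in dec2WT replicate 1 and 28.4 to 44.9 CPM in the other 8. The same library had 199 CPM of the clock gene vri, against 40.5 to 58.7 CPM in the other 8. For the clock gene per it had 23.8 CPM, against 3.60 to 6.76 CPM.

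On Illumina, 7 of the 8 genes were abundant, at 119 to 722 FPKM in every library. Mst84Db was the highest at 588 ± 75 FPKM over all 9 libraries (SD), followed by Mst87F at 460 ± 61 FPKM and Mst84Dc at 386 ± 54 FPKM. These 3 kept that order in 9 of 9 libraries. Mst84Dd (334 ± 60 FPKM) was above Mst98Ca (285 ± 42 FPKM) in 8 of 9. Mst98Cb (157 ± 23 FPKM) and dj (156 ± 21 FPKM) were not separated, since Mst98Cb was the higher in 4 libraries of 9. Within the Mst98C pair, Mst98Ca was above Mst98Cb in every library, by 1.81-fold on average.

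**Figure D1:**
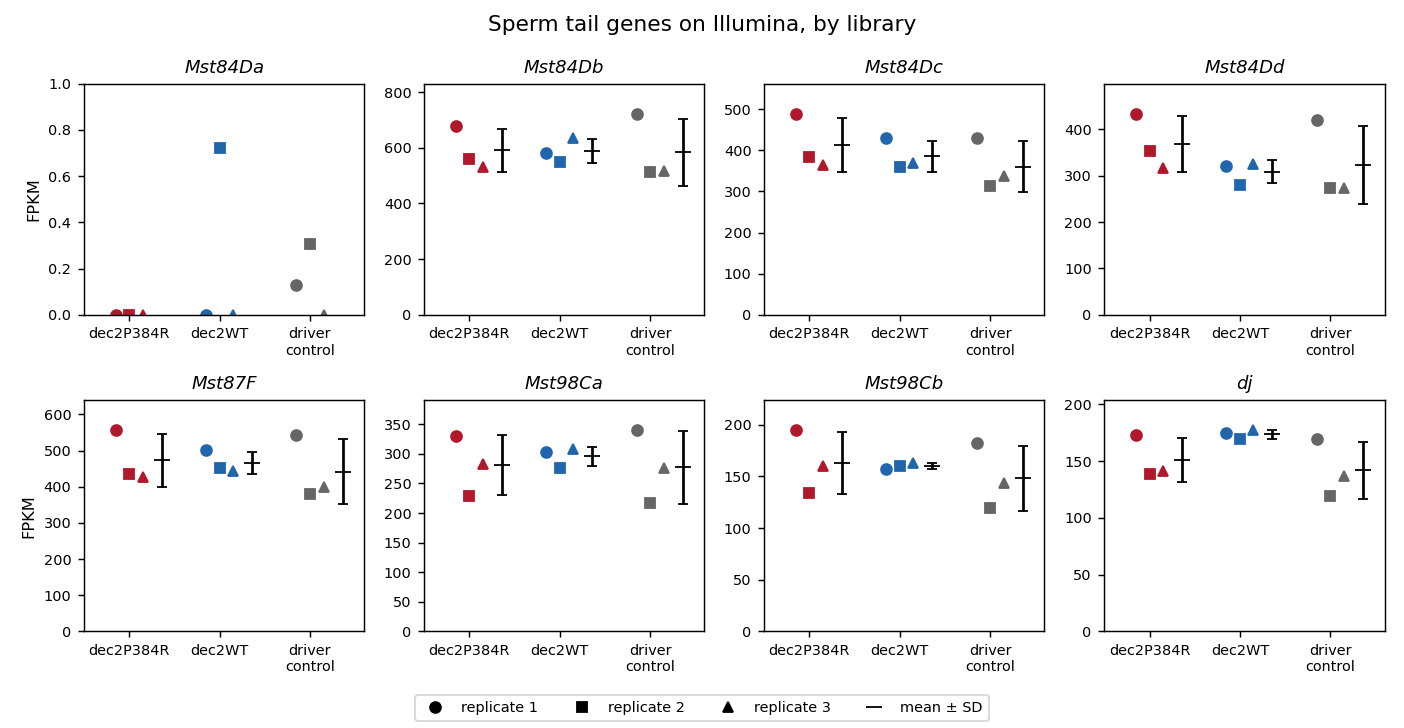
FPKM of the 8 sperm tail genes in each Illumina library, by genotype, with the mean and SD of 3 libraries beside the points (none drawn for Mst84Da, whose axis ends at 1 FPKM). Replicate 1 is the highest library of dec2P384R and of the driver control for all 7 genes with reads.

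Mst84Da was the exception. It had 0, 0 and 0 FPKM in dec2P384R, 0, 0.72 and 0 FPKM in dec2WT, and 0.13, 0.31 and 0 FPKM in the driver control (replicates 1 to 3). These values rest on 9 reads in all, and 6 libraries had none. A library without a read allows up to 3 reads, or 0.33 to 0.45 FPKM at these depths (counting error only). With so few reads it was left out of the Illumina test, so 7 of 8 genes were tested there.

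On Nanopore the same gene was abundant. Mst84Da had 648, 528 and 693 CPM in dec2P384R, 549, 565 and 537 CPM in dec2WT, and 494, 520 and 633 CPM in the driver control. Per kilobase of gene length it averaged 1604 ± 189 CPM over 9 libraries, beside 1994 ± 672 for Mst84Dc and 1674 ± 253 for Mst84Db, and these 3 exchanged ranks between libraries. Mst87F ranked 4 (1355 ± 215 CPM per kilobase) and Mst84Dd ranked 5 (697 ± 150) in 9 of 9 libraries. They were followed by dj (390 ± 94), Mst98Ca (276 ± 32) and Mst98Cb (237 ± 45), where dj was above Mst98Ca in 8 libraries and Mst98Ca above Mst98Cb in 7. On average, both platforms placed the short Mst84Db, Mst84Dc, Mst84Dd and Mst87F transcripts above the Mst98C pair per length. Mst84Da was near the top on Nanopore and at the bottom on Illumina. The Nanopore order depends on the division by gene length. In undivided CPM, Mst98Ca (364 ± 43) and dj (471 ± 114) averaged above Mst84Dd (289 ± 62). Whether Nanopore counts scale with gene length was not tested.

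Of the 358 exonic bases of Mst84Da, 269 (75.1%) are also exonic in MstProx, a gene on the opposite strand. No exonic base of the other Mst84D genes, the Mst98C pair or dj is shared with another gene, and Mst87F shares 41 of its 623 bases (6.58%) with lncRNA:CR43300. MstProx itself had 12 to 26 Illumina reads per library and 3.75 to 45.6 CPM on Nanopore, so the Mst84Da reads were not found under its name. Over the whole table, low Illumina levels also went with shared exonic bases, on either strand. Of 1509 genes with a Nanopore mean of at least 100 CPM, 43 (2.85%) averaged under 1 FPKM on Illumina. All 43 were among the 71 genes that share at least 50% of their exonic bases with another gene, and 0 were among the 1438 genes that share less. Where at least 90% was shared, 35 of 44 genes (79.5%) were that low, against 8 of 27 (29.6%) at 50% to 90%. Unlike Mst84Da, most of the 43 overlapped genes of the same strand only. Another male gene with a partner on the opposite strand was Acp95EF, a seminal fluid gene covered in full by Spase22-23, at 0 FPKM and 1602 CPM. How the Illumina counting treated bases that 2 genes share was not given in the sources used here, and the part of the overlap in the low values was not tested.

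**Figure D2:**
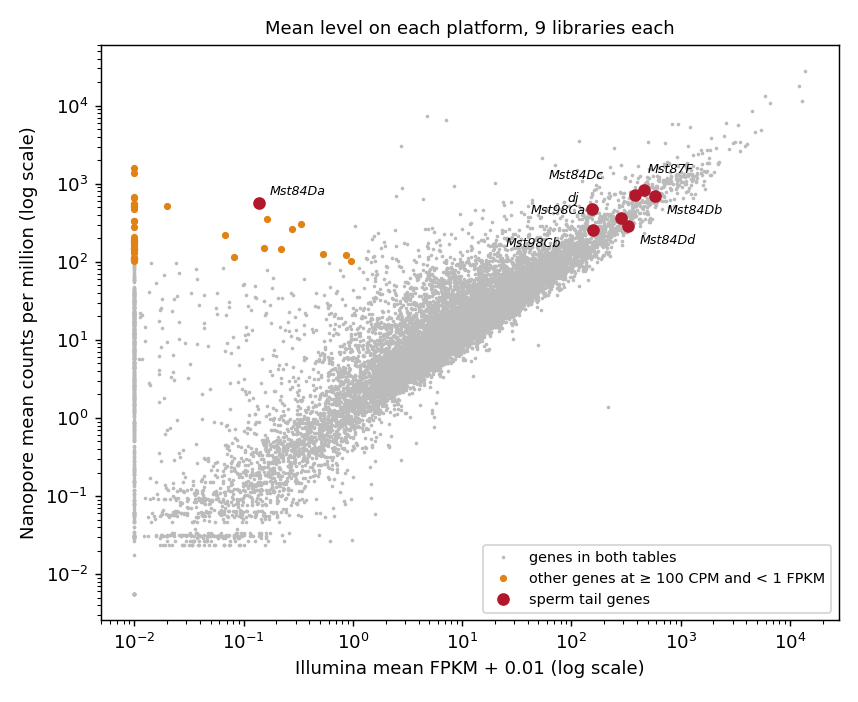
Mean Nanopore level (CPM, log scale) against mean Illumina level (FPKM + 0.01, log scale) of the genes in both tables, 9 libraries per platform. The 8 sperm tail genes are labelled, and Mst84Da lies at 0.13 FPKM and 574 CPM, among the other genes with at least 100 CPM and under 1 FPKM.

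Set against each other as shares of all counts, 6 of the 7 remaining genes took a larger share on Nanopore, and the shorter Mst84Dc took the most. The ratio of mean Nanopore CPM to mean Illumina CPM was 5.10 for Mst84Dc, 2.91 for Mst87F, 2.82 for Mst84Db, 2.48 for dj, 2.07 for Mst84Dd, 1.49 for Mst98Cb and 0.957 for Mst98Ca. The median ratio was 1.99 over 982 genes of 300 to 700 nt and 0.988 over 1614 genes of 1000 to 1400 nt. Of the 7 genes, 5 lay above the upper quartile of their length class, which were Mst84Dc, Mst87F and Mst84Db (upper quartile 2.61) and dj and Mst98Cb (upper quartile 1.24). No test was made between platforms, which differ in every step.

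**Figure D3:**
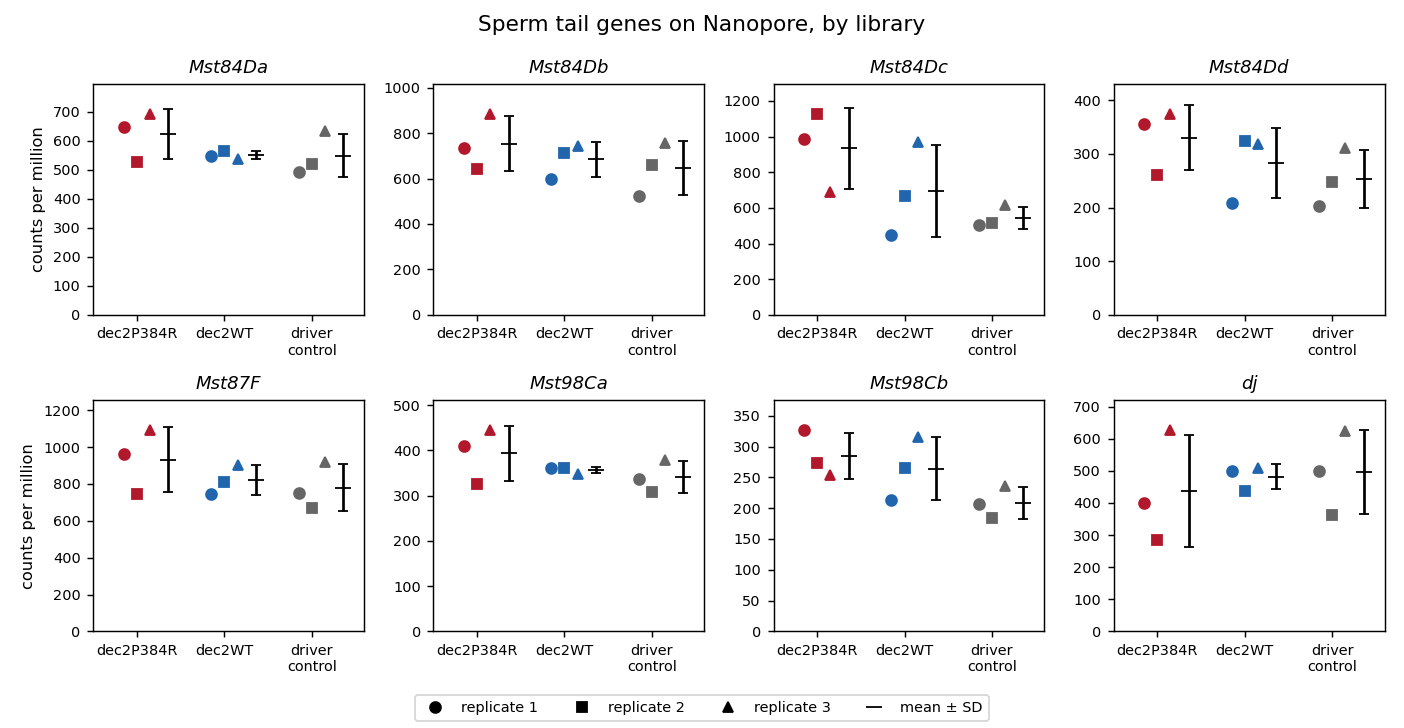
Nanopore CPM of the 8 sperm tail genes in each library, by genotype, with the mean and SD of 3 libraries beside the points. Mst84Dc has the widest spread, from 450 CPM in dec2WT replicate 1 to 1128 CPM in dec2P384R replicate 2.

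The comparison of dec2P384R with the driver control asked whether these transcripts differed in flies with the mutant transgene. On Illumina, Mst84Dc had 488.9, 384.3 and 365.5 FPKM in dec2P384R and 429, 313 and 339 FPKM in the driver control. Mst84Dd had 434, 354 and 317 FPKM in dec2P384R and 421, 274 and 274 FPKM in the driver control. The groups overlapped for both genes, with replicate 1 of the control above 2 of the dec2P384R libraries. The log2 fold changes were 0.20 ± 0.16 (SE) for Mst84Dc and 0.21 ± 0.18 for Mst84Dd, with limma adjusted p of 0.635 and 0.672. Over the 7 tested genes the log2 fold changes were all above 0, between 0.02 and 0.21 with a median of 0.11, where 50.8% of all genes were above 0. The 7 genes moved together from library to library, so these signs are not separate observations. None of the 7 passed the test, in which 2.8% of all 13418 genes were called at an adjusted p under 0.05. None had an unadjusted p under 0.05 (14.1% of all genes). When each dec2P384R library was set against the control library of the same number, Mst84Dc, Mst84Dd, Mst87F, Mst98Cb and dj were higher in 3 of 3 pairs, and Mst84Db and Mst98Ca in 2 of 3. Of all genes, 20.8% were higher in 3 of 3. With the replicate number as a block in limma, the lowest adjusted p of the 7 was 0.378. The 95% intervals of the 7 folds ran from 0.775 to 1.53.

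On Nanopore, Mst84Dc had 985, 1128 and 687 CPM in dec2P384R and 502, 514 and 615 CPM in the driver control. All 3 dec2P384R libraries were above all 3 control libraries. The log2 fold change was 0.69 ± 0.25 (1.61-fold, 95% interval 1.11 to 2.33), with an unadjusted p of 0.0164 and an edgeR adjusted p of 0.341. Mst98Cb, which encodes the smaller of the paired Mst98C proteins, had 326, 274 and 253 CPM in dec2P384R and 207, 183 and 236 CPM in the driver control. These groups did not overlap either, and the log2 fold change was 0.36 ± 0.17 with an edgeR adjusted p of 0.461. Libraries parted in this way for 16.9% of all genes, and 11.0% had an unadjusted p under 0.05, against 2 and 1 of the 8 sperm tail genes. None of the 8 was called, beside 0.474% of 11393 genes. Log2 fold changes were above 0 for 7 of the 8, with a median of 0.16, and for 49.8% of all genes. On Illumina the dec2P384R and control libraries of Mst98Cb overlapped, at 195, 134 and 160 FPKM against 182, 119 and 143 FPKM.

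Other genes of the set showed smaller differences on Nanopore. Mst84Dd had 356, 261 and 375 CPM in dec2P384R against 202, 247 and 311 CPM in the driver control, with a log2 fold change of 0.30 ± 0.22. Mst87F had 960, 743 and 1091 CPM in dec2P384R against 750, 671 and 918 CPM in the driver control, with a log2 fold change of 0.18 ± 0.18. For both the groups overlapped. Mst84Db had 734, 643 and 885 CPM in dec2P384R against 521, 658 and 758 CPM in the driver control, and Mst98Ca 411, 325 and 445 CPM against 337, 308 and 379 CPM, again with overlap. The gene dj was the only one of the 8 with a negative estimate (−0.24 ± 0.27), at 401, 285 and 626 CPM in dec2P384R and 499, 362 and 625 CPM in the driver control. Its libraries within a genotype differed by up to 2.20-fold, the widest such ratio of the 8 genes.

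**Figure D4:**
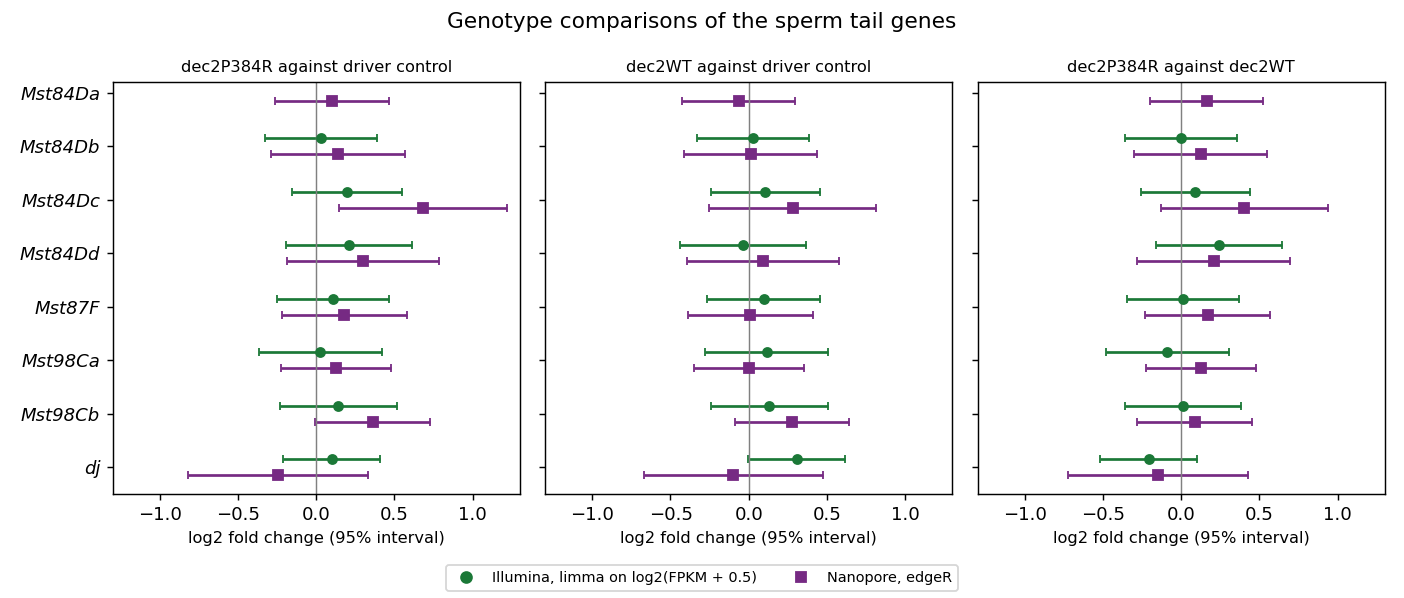
Log2 fold changes of the sperm tail genes with 95% intervals in the 3 genotype comparisons, for Illumina (circles, log2(FPKM + 0.5) scale) and Nanopore (squares). Of the 45 intervals, the one for Mst84Dc on Nanopore in dec2P384R against driver control (log2 0.15 to 1.22) lies apart from 0.

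In the comparison of dec2WT with the driver control, which asked the same for the transgene without the mutation, dj was the gene with the lowest p. It had 175, 169 and 177 FPKM in dec2WT and 169, 120 and 137 FPKM in the driver control. The lowest dec2WT library was above the highest control library by 0.0071 FPKM, and the dec2WT libraries lay within 8 FPKM of one another. The log2 fold change was 0.31 ± 0.14 (1.24-fold, 95% interval 0.997 to 1.53), with an unadjusted p of 0.0530 and a limma adjusted p of 0.455. Without driver control replicate 1, the fold change was 0.44 on the log2 scale and the adjusted p 0.174, the lowest reached on Illumina. On Nanopore the estimate for dj had the other sign (−0.10 ± 0.27), at 500, 438 and 507 CPM in dec2WT and 499, 362 and 625 CPM in the driver control, with overlapping groups.

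None of the 7 genes was called on Illumina (2.61% of all genes called) and none of the 8 on Nanopore (0.799%). No sperm tail gene had an unadjusted p under 0.05 on either platform in this comparison, beside 11.3% and 10.1% of all genes, and 1 gene (dj, on Illumina) had groups that did not overlap, beside 20.0% of all genes. Mst84Db had 580, 549 and 636 FPKM in dec2WT and 722, 513 and 516 FPKM in the driver control, a log2 fold change of 0.03 ± 0.16. For this gene, the highest on Illumina, both dec2WT extremes fell inside the control's own range. Mst87F likewise had 502, 452 and 444 FPKM in dec2WT and 544, 381 and 400 FPKM in the driver control. On Nanopore, Mst98Ca had 360, 361 and 349 CPM in dec2WT and 337, 308 and 379 CPM in the driver control, a log2 fold change near 0 with a 95% interval of the fold from 0.784 to 1.28. Over the 7 genes the median log2 fold change was 0.11 on Illumina, with 6 of 7 above 0 beside 50.3% of all genes. Over the 8 it was 0.01 on Nanopore, with 5 of 8 above 0 beside 50.2% of all genes. The 95% intervals of the folds spanned 0.737 to 1.53 on Illumina and 0.628 to 1.76 on Nanopore.

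The comparison of dec2P384R with dec2WT set the mutant against the normal form of the transgene. Mst84Dd had 434, 354 and 317 FPKM in dec2P384R and 321, 280 and 326 FPKM in dec2WT, with a log2 fold change of 0.24 ± 0.18 and a limma adjusted p of 0.808. On Nanopore its values of 356, 261 and 375 CPM in dec2P384R and 208, 324 and 318 CPM in dec2WT also overlapped. Mst98Ca, which encodes the longest of the 8 proteins, had 330, 229 and 283 FPKM in dec2P384R and 303, 277 and 308 FPKM in dec2WT, a log2 fold change of −0.09 ± 0.18. The dec2WT libraries of this gene lay inside the dec2P384R range. None of the 7 genes was called on Illumina (0.783% of all genes called) and none of the 8 on Nanopore (0.132%), and none had an unadjusted p under 0.05 (8.07% and 7.19% of all genes) or groups that did not overlap (13.3% and 11.0%). On Nanopore, Mst84Dc was at 985, 1128 and 687 CPM in dec2P384R and 450, 666 and 969 CPM in dec2WT. Its log2 fold change of 0.40 ± 0.25 (95% interval of the fold 0.913 to 1.92) was the largest of the 8. Over the main fit and its alternatives, this value ranged from 0.17 to 0.70. The 450 CPM belong to dec2WT replicate 1, the library that stood apart in the clock gene tim. Log2 fold changes were above 0 for 5 of 7 genes on Illumina (49.6% of all genes) and for 7 of 8 on Nanopore (49.1%). The 3 comparisons share their libraries pairwise, so their values are not independent of each other.

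DESeq2 called none of the sperm tail genes in any of the 3 comparisons on either platform, and edgeR on the reads recovered from the FPKM values called none on Illumina. In dec2P384R against driver control, edgeR called 3.07% and DESeq2 3.75% of all genes on Illumina, and DESeq2 0.801% on Nanopore. The shares were 2.91%, 3.42% and 0.881% in dec2WT against driver control, and 0.771%, 1.12% and 0.286% in dec2P384R against dec2WT.

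The spread between libraries of one genotype differed by group. On Illumina, the SD of the summed FPKM of the set was 14.7% of the mean in dec2P384R, 4.86% in dec2WT and 20.5% in the driver control. For summed CPM on Nanopore it was 9.57%, 12.3% and 14.9%. On Illumina, the highest library of a genotype exceeded its lowest by up to 1.37-fold to 1.57-fold, depending on the gene, and on Nanopore by up to 1.31-fold to 2.20-fold. Differences between genotype means made up 0.65% (Mst84Db) to 43.3% (dj) of the sum of squares of the 7 genes on Illumina. The median over all 13418 genes was 26.9%. On Nanopore they made up 8.63% (dj) to 52.2% (Mst98Cb) of that of the 8 genes. The median over all 11393 genes was 25.9%. With 3 libraries per genotype, such shares lie above 0 even where genotypes do not differ. These shares are descriptions of 9 libraries each and do not measure an effect of genotype.

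On Illumina the genes moved together from library to library. All 7 were highest in replicate 1 of dec2P384R and in replicate 1 of the driver control, and 6 of 7 were lowest in driver control replicate 2. The summed FPKM of the set was 2855, 2236 and 2228 in dec2P384R, 2467, 2248 and 2422 in dec2WT, and 2808, 1937 and 2083 in the driver control. Replicate 1 thus stood above both other libraries in all 3 genotypes. Pearson's r between pairs of the 7 genes over the 9 libraries was 0.51 to 0.96 (median 0.81 over 21 pairs), where the points share a library and its scaling. On Nanopore, r ranged from −0.41 to 0.93 (median 0.60 over 28 pairs). The lowest was between Mst84Dc and dj, and Mst84Dc went with Mst98Cb (r = 0.87). There, 8 of 8 genes were highest in replicate 3 of the driver control and 6 of 8 in replicate 3 of dec2P384R, so the Illumina and Nanopore libraries of one number did not have the same profile. Whether they came from one RNA sample is not stated.

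The genes whose Illumina profile was most like the mean of the set were CG31740 (r = 0.996 over 9 libraries, mean 624 FPKM), ocn (ocnus, 0.987), CG43329 (0.986), CG42758 (0.985) and eIF4E4 (0.982). ocn is a testis gene of the janus cluster, and eIF4E4 encodes a relative of the cap-binding translation factor eIF4E. Of 6344 genes with a mean of at least 10 FPKM, 221 (3.48%) had r over 0.9, and the median r was −0.04. The median r was 0.82 for 17 other sperm tail genes, 0.84 for 13 comet and cup genes, which are transcribed in elongating spermatids, and 0.87 for 4 sperm chromatin genes. It was 0.34 for 21 accessory gland genes and −0.49 for 7 markers of other tissues. On Nanopore, r with the set was 0.72 for CG31740, 0.85 for ocn, 0.50 for CG43329, 0.82 for CG42758 and 0.30 for eIF4E4.

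**Figure D5:**
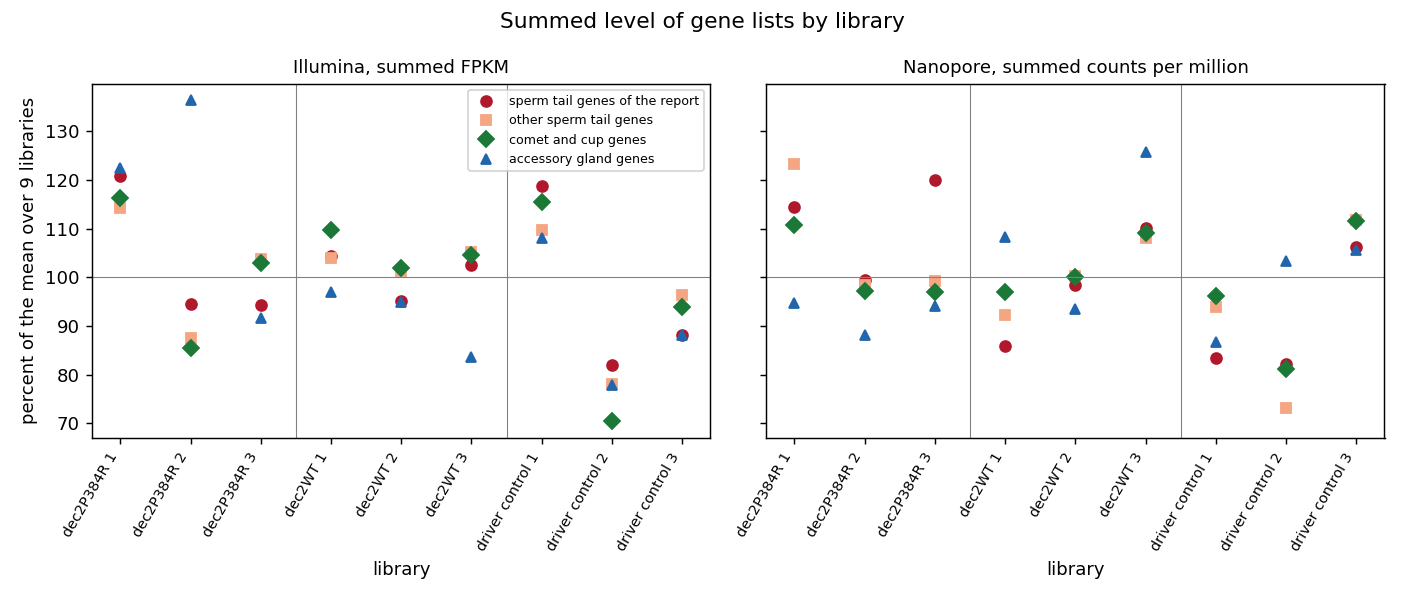
Summed level of the 8 sperm tail genes and of 3 further gene lists in each library, as percent of the list's mean over the 9 libraries of a platform (Illumina FPKM on the left, Nanopore CPM on the right). On Illumina the 3 germline lists and the accessory gland genes are all at their lowest in driver control replicate 2, and the accessory gland genes are highest in dec2P384R replicate 2.

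Other genes of the male germline gave the background to the set. Of 18 further sperm tail genes (among them djl, the tektins, loopin-1 and S-Lap leucyl aminopeptidases), 15 comet and cup genes, 10 axoneme genes and 4 sperm chromatin genes tested on Illumina, none was called in any of the 3 comparisons. On Nanopore 18, 16, 12 and 4 of them were tested and none was called. In dec2P384R against driver control on Illumina, 18 of the 18 further sperm tail genes had a log2 fold change above 0 (median 0.10) and 13 of the 15 comet and cup genes (median 0.13), while the axoneme genes had 5 of 10 (median 0.02). In dec2WT against driver control the counts were 17 of 18 (median 0.15), 15 of 15 (median 0.17) and 5 of 10 (median 0.00). In dec2P384R against dec2WT they were 7 of 18 (median −0.04), 3 of 15 (median −0.06) and 5 of 10 (median 0.02). On Nanopore, dec2P384R against driver control had 13 of 18 sperm tail genes above 0 (median 0.05), 10 of 16 comet and cup genes (median 0.07) and 2 of 12 axoneme genes (median −0.15). For dec2WT against driver control, the Nanopore counts were 10 of 18 (median 0.03), 8 of 16 (median −0.00029) and 5 of 12 (median −0.11). For dec2P384R against dec2WT, they were 10 of 18 (median 0.04), 11 of 16 (median 0.13) and 5 of 12 (median −0.02), so the comet and cup genes lay mostly below 0 on Illumina and mostly above 0 on Nanopore. The median over all genes lay within 0.01 of 0 in each comparison on each platform, and 49.1% to 50.8% of all genes were above 0. On Illumina the sperm tail, comet and cup genes moved together from library to library (median r with the set of 0.82 and 0.84). Their sign counts are therefore not separate observations. Driver control replicate 2 had the lowest sum of both lists there. The summed FPKM of the 18 sperm tail genes was 2662 to 3470 in dec2P384R, 3077 to 3198 in dec2WT and 2371 to 3334 in the driver control, so that the dec2WT libraries were inside the control's range here too.

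Among 11 meiotic arrest genes, which switch on transcription in spermatocytes, vis rose and achi fell in dec2P384R against the driver control on Illumina. vis was at 6.94 ± 0.48 FPKM in dec2P384R and 4.62 ± 0.09 FPKM in the driver control (SD, n = 3), a log2 fold change of 0.54 ± 0.11 with a limma adjusted p of 0.0225. achi was at 4.95 ± 0.37 FPKM in dec2P384R and 7.14 ± 0.31 FPKM in the driver control, with −0.49 ± 0.10 and 0.0231. They encode near-identical TGIF homeodomain proteins from adjacent genes, so the split of reads between them is uncertain. Both calls were lost in the fit to the 6 compared libraries (adjusted p of 0.0602 and 0.0951). The call for vis was also lost without any 1 of the driver control libraries or without dec2P384R replicate 2 or 3 (0.0502 to 0.0922), and that for achi without any 1 of the driver control libraries, dec2P384R replicate 3 or dec2WT replicate 2 (0.0510 to 0.10). On Nanopore neither was called, at log2 fold changes of 0.11 ± 0.24 for vis (edgeR adjusted p of 0.906) and −0.71 ± 0.22 for achi (0.229). In dec2WT against the driver control, achi had −0.40 ± 0.10 on Illumina (limma adjusted p of 0.0682) and −0.63 ± 0.20 on Nanopore (edgeR adjusted p of 0.254). That Illumina value was past the threshold in the fit to the 6 compared libraries (0.0469) and with DESeq2 on the recovered reads (0.0493). Between dec2P384R and dec2WT, achi differed by −0.09 ± 0.10 on Illumina (limma adjusted p of 0.884).

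Levels of gene lists from other tissues stood beside those of the sperm tail genes. The summed FPKM of 22 accessory gland genes was 9520, 10602 and 7116 in dec2P384R, 7527, 7375 and 6494 in dec2WT, and 8393, 6051 and 6846 in the driver control. None of 7 clock genes was called on either platform, where the Nanopore dec2WT group holds the replicate 1 that stood apart in tim, vri and per. None of the accessory gland genes, 21 tested on Illumina and 22 on Nanopore, was called in any comparison, beside 0.132% to 2.8% of all genes. An unadjusted limma p under 0.05 was found on Illumina for 4, 5 and 4 of the 21, beside 14.1%, 11.3% and 8.07% of all genes. The edgeR counts on Nanopore were 1, 0 and 1 of the 22, beside 11.0%, 10.1% and 7.19%. The order is dec2P384R and dec2WT against driver control, then dec2P384R against dec2WT. In dec2P384R against driver control, 16 of 21 had a log2 fold change above 0 on Illumina (median 0.26), beside 50.8% of all genes. On Nanopore 9 of 22 were above 0 (median −0.04), beside 49.8% of all genes. In dec2P384R against dec2WT, 20 of 21 were above 0 on Illumina (median 0.32), beside 49.6% of all genes. The Nanopore count was 7 of 22 (median −0.16), beside 49.1% of all genes. In dec2WT against driver control, 11 of 21 on Illumina (median 0.01) and 15 of 22 on Nanopore (median 0.095) were above 0. Of all genes, 50.3% and 50.2% were. Of the ovary list, the eggshell gene Cp7Fb fell in dec2WT against the driver control on both platforms, at low levels. On Nanopore it had 0.24 ± 0.22 CPM in dec2WT and 2.99 ± 0.81 CPM in the driver control, values that rest on few counts. On Illumina it had 0.17 ± 0.06 FPKM in dec2WT and 1.48 ± 0.26 FPKM in the driver control (limma adjusted p of 0.00177). It was also higher in dec2P384R than in dec2WT there (1.00 ± 0.31 FPKM in dec2P384R, adjusted p of 0.0254). Of 9 markers of other tissues, the trypsin gene alphaTry fell in dec2WT, to 2789 ± 276 FPKM in dec2WT against 5589 ± 603 FPKM in the driver control (limma adjusted p of 0.0394) and to 2184 ± 387 CPM against 4296 ± 235 CPM (edgeR adjusted p of 0.0183). In dec2P384R, alphaTry was also below the control mean but not called, at 3716 ± 1190 FPKM (limma adjusted p of 0.207) and 3112 ± 329 CPM (edgeR adjusted p of 0.282). That Illumina value was past the threshold with DESeq2 on the recovered reads (0.0442) and in limma without dec2P384R replicate 2 (0.0114). Near-identical neighbours can share reads with alphaTry. On Illumina the alphaTry call in dec2WT was lost without any 1 of the dec2WT or driver control libraries (0.0660 to 0.209) and without a filter on low values (0.114). On Nanopore it was lost with the replicate block (0.0520), without any 1 of the driver control libraries and without dec2WT replicate 1 or 3 (0.0504 to 0.0901). For Cp7Fb, the Nanopore call (edgeR adjusted p of 0.0357) was lost without dec2P384R replicate 1 or any 1 of the dec2WT or driver control libraries (0.0639 to 0.159). Its call in dec2P384R against dec2WT was lost in the fit to the 6 compared libraries (0.0772) and without any 1 of the dec2WT libraries, dec2P384R replicate 1 or 3 or driver control replicate 3 (0.0511 to 0.108). The summed markers of other tissues were at 6902 to 9847 FPKM in dec2P384R, 7117 to 7315 FPKM in dec2WT and 9446 to 10873 FPKM in the driver control. Most of that difference was alphaTry itself, since the other 8 markers summed to 3976 to 4763 FPKM in dec2P384R, 4208 to 4626 FPKM in dec2WT and 4370 to 4620 FPKM in the driver control, with overlapping groups. The part of any of these in the values of the sperm tail genes was not tested.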

How the data were processed

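Illumina libraries were polyA-enriched and paired (150 nt), and Nanopore libraries were direct cDNA, per the labels. They describe the replicates as biologically independent. Tools listed in the submitters' processing notes, with no roles, are minimap2 and Salmon, HISAT2 and featureCounts 1.5.0-p3, and DESeq2. Neither build nor strand setting is given in the sources used here; without strand, reads of a gene and its antisense partner cannot be told apart. The Illumina values deposited by the authors under a name that speaks of counts are FPKM. Multiplied by gene length and 1 constant per library they gave whole reads for 100% of values above 0 (tolerance 1e-06), and those constants are proportional to median-of-ratios factors. The constants come from the whole-number counts in the authors' deposited comparison tables, from which 36 other per-library columns were not used. The authors' Nanopore table holds estimated counts, of which 59.9% above 0 were not whole. One Illumina column spells the mutant with exchanged digits and was used as dec2P384R replicate 2, the sole library its remaining name matches.

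The Illumina test was limma 3.58.1 with a trended empirical Bayes prior. It ran on log2(FPKM + 0.5) for the 13418 genes that reached 0.5 FPKM in 3 or more libraries, so folds understate the change of low genes. Rounded estimated counts were tested with edgeR 4.0.16 (TMM, filterByExpr, quasi-likelihood) over 11393 genes, and standard errors were taken from its F statistic. Each platform had 1 model with all 9 of its libraries. All p-values are two-sided, adjusted over every gene tested (Benjamini-Hochberg) and called under 0.05. The fits, in R 4.3.3, were first tested on simulated data, where genes varied independently and changed by larger folds than the sperm tail genes here. How well the fits recover small changes in genes that move together was not tested. Alternatives were other pseudocounts (0.1 and 1), no filter, DESeq2 1.42.0, edgeR on recovered reads, other scalings, the 6 compared libraries alone, a replicate block and the omission of each library.

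The 8 genes, the lists and the tests were chosen with earlier results of these data known. Of 133 listed gene names, 128 matched the Illumina table. Besides the 8 genes, the text names up to 4 called genes of each list, the 5 genes most like the set and markers of other tissues; Acp95EF was named after its values were seen. Same-numbered Illumina libraries of dec2P384R and the driver control deviated together across genes (r = 0.26, 0.12 and 0.25), so the numbers pair them there, a hint from the data alone; the block changed no call of a sperm tail gene.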

Additional observations from a re-analysis of the deposited data

How the results depend on the processing

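No sperm tail gene was called in any comparison on either platform under the 93 alternatives over the counts of calls (17 per Illumina and 14 per Nanopore comparison). The replicate block is among these, and its lowest adjusted p was 0.224 on Illumina (limma) and 0.360 on Nanopore (edgeR). The lowest adjusted p of all was 0.158, for Mst84Dc on Nanopore in dec2P384R against driver control with the 6 compared libraries alone. Omitting a library moved its log2 fold change there between 0.53 and 0.84. The sign was less stable: 55 of 693 member values changed sign, 50 of them on omission of a library. Outside omissions these were Mst84Db in dec2P384R against dec2WT on Illumina (−0.0051 with FPKM rescaled by TMM) and Mst98Ca in dec2WT against driver control on Nanopore (0.0025 with DESeq2 size factors, 0.0018 with DESeq2, 0.0019 with the 6 libraries and 0.0062 with the replicate block); the cause was not tested.

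Over the omissions, log2 fold changes that changed sign ranged as follows. On Illumina in dec2P384R against driver control these were Mst84Db −0.075 to 0.19, Mst87F −0.016 to 0.27, Mst98Ca −0.14 to 0.18, Mst98Cb −0.0037 to 0.30 and dj −0.016 to 0.23. In dec2WT against driver control they were Mst84Db −0.055 to 0.19, Mst84Dd −0.14 to 0.17, Mst87F −0.0024 to 0.26, Mst98Ca −0.051 to 0.27 and Mst98Cb −0.015 to 0.29. In dec2P384R against dec2WT they were Mst84Db −0.10 to 0.072, Mst84Dc −0.037 to 0.17, Mst87F −0.11 to 0.078, Mst98Ca −0.21 to 0.049 and Mst98Cb −0.12 to 0.14. On Nanopore in dec2P384R against driver control they were Mst84Da −0.024 to 0.21, Mst84Db −0.034 to 0.26, Mst98Ca −0.013 to 0.25, Cp7Fb −0.21 to 0.61 and vis −0.030 to 0.28. In dec2WT against driver control they were Mst84Da −0.16 to 0.041, Mst84Db −0.14 to 0.13, Mst84Dc −0.0099 to 0.51, Mst84Dd −0.070 to 0.27, Mst87F −0.046 to 0.14, Mst98Ca −0.038 to 0.073 and dj −0.24 to 0.097. In dec2P384R against dec2WT they were Mst84Db −0.049 to 0.24, Mst87F −0.0041 to 0.32, Mst98Ca −0.014 to 0.25, Mst98Cb −0.042 to 0.21, dj −0.55 to 0.095, achi −0.25 to 0.083 and vis −0.37 to 0.029.

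For the other pairs of groups, the hint of pairing by replicate number was mixed. On Illumina, the same number was the best match throughout between dec2P384R and dec2WT, with correlations of 0.24, 0.040 and 0.21. Between dec2WT and the driver control on Illumina they were 0.076, −0.029 and 0.18, and those of the Nanopore pairs were −0.13 to 0.18. The same number was not the best match throughout in any of these. With the block, calls over all genes moved to 504, 473 and 130 on Illumina, against 376, 350 and 105 without it, and to 39, 68 and 12 on Nanopore, against 54, 91 and 15 (dec2P384R and dec2WT against driver control, then dec2P384R against dec2WT). With 3 libraries per genotype, the 95% intervals of the folds reached 0.698 and 1.57 on Illumina and 0.566 and 2.33 on Nanopore, and Mst84Da on Illumina is limited by its 9 reads.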
